A study of Mus musculus with 12 samples.

Results

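The genes described here are those whose platform symbol begins with Nduf, Uqcr or Atp5, those named Sdha to Sdhd, and those whose symbol begins with Cox4, Cox5, Cox6, Cox7 or Cox8. They encode the nuclear subunits of the mitochondrial respiratory chain and the ATP synthase. Choosing members used symbols alone and no measured value, but the rule itself was set with earlier results of these data known. It found 78 genes of the 17742 named genes on the array, each represented by its brightest probe. Of these, 70 encode structural subunits or their isoforms in other tissues, with 32 in complex I, 4 in complex II, 6 in complex III, 18 in complex IV (the supercomplex factor Cox7a2l is the only 1 of these not counted as structural) and 11 in complex V. A further 4 are assembly factors of complex I (Ndufaf1 to Ndufaf4). The last 3, Dmac2, Dmac2l and Emc8, carry older symbols of the same style and are not subunits.

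The data are total RNA levels in mouse liver, read on 12 one-dye oligonucleotide arrays from 6 liver samples, with 2 samples in each of 3 groups and 2 arrays per sample. Control mice were untreated, STZ mice had diabetes induced with STZ (streptozotocin, a toxin of the insulin-producing beta cells), and STZ+MENS mice had STZ diabetes and MENS. MENS, which the labels do not spell out, was applied through a printed circuit board, in sessions of 1 h on 5 days a week during 6 weeks. All groups are labelled 8 weeks old, without saying whether that age refers to the start or to sampling, and the labels used here give no strain, sex, STZ dose or glucose value. The labels do not say that each liver sample is 1 animal, so every p-value measures only the spread between these samples, which may be technical.

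The respiratory chain sits in the inner mitochondrial membrane. Complex I takes electrons from NADH and complex II from succinate, complex III passes them from ubiquinol to cytochrome c, complex IV hands them to oxygen, and complex V uses the resulting proton gradient to make ATP. Liver relies on this chain to oxidise fatty acids and to power gluconeogenesis and urea synthesis. Complex II is encoded wholly in the nucleus, whereas the other complexes also hold subunits encoded by mitochondrial DNA, which the symbols chosen here do not cover.

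Probe intensities are given on the log2(intensity + 50) scale, on which a difference of 1 is a doubling for a bright probe and understates the change of a dim one. Array medians lay between 768.89 and 770.33, and 62 of the 78 genes were brighter than the median probe. Hepatocyte markers were bright in every sample: summed over the 8 of 13 hepatocyte markers measured, the intensity was 3160000 to 3270000 in control, 3030000 to 3100000 in STZ and 2830000 to 2900000 in STZ+MENS samples. Of these 8 markers, Cps1 and Tat had the widest log2 differences between STZ+MENS and STZ, at -1.27 and -1.17. Alb, Apoa2 and Pck1 differed by -0.13, -0.21 and -0.16, and Apoa1, Ttr and Fgb by 0.28, 0.17 and 0.26. A small log2 difference of a bright marker can also move the summed intensity. In whole tissue, fewer cells of a type and less RNA per cell cannot be told apart. Other marker sums also differed: the 8 stellate cell markers gave 58400 to 62300 in control, 30900 to 39100 in STZ and 34900 to 62300 in STZ+MENS, and 8 of 9 cholangiocyte markers gave 16700 to 17400, 20900 to 26300 and 18200 to 23500. The 3 of 8 erythroid markers measured gave 79700 to 95700 in control, 32700 to 55400 in STZ, and 105000 in STZ+MENS sample 1 against 9360 in sample 2. The stellate cell, cholangiocyte and erythroid sums each rest mostly on 1 bright gene, so they follow that gene more than the whole list. These genes are Reln (mean intensity 38500), Spp1 (14000) and Alas2 (62300). The part of these marker differences in the values below was not tested. STZ+MENS sample 2 had the widest gap between its arrays: 14 respiratory chain genes (17.9%) and 20.2% of all genes differed by more than 0.5, against 0 to 2 of these genes in each other sample.

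No respiratory chain gene passed an adjusted p of 0.05 in any comparison by limma over all 17742 genes. The share of all genes that passed was 0.00564% for STZ against control, 0% for STZ+MENS against STZ and 0.00564% for STZ+MENS against control. The lowest adjusted p among the 78 genes was 0.11, 0.0595 and 0.125 in the same order. Within each of complexes I, III, IV and V, with 32, 6, 18 and 11 genes, differences had both signs. In STZ+MENS against STZ, 4, 0, 2 and 1 of these genes were higher at an unadjusted limma p under 0.05. In the same order of complexes, 8, 2, 3 and 2 were lower. Over all genes, 12.6% were higher and 12.8% lower. Of the 4 succinate dehydrogenase genes, Sdha, Sdhb and Sdhd were lower in STZ+MENS than in either other group at an unadjusted limma p under 0.05, and Sdhc was not.

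In STZ livers, 7 of the 78 genes were higher and 3 lower than in control at an unadjusted limma p under 0.05 (8.97% and 3.85%), against 8.48% and 8.49% of all genes. Both STZ samples lay above both control samples for 27 of the 78 and below them for 13, against 24% and 28.2% of all genes. The median difference was 0.09 over the 78 genes and -0.02 over all genes. The share that was higher was near the background at an unadjusted p under 0.05 and above it by overlap (34.6%), and the share that was lower was below the background by both counts (16.7% by overlap).

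STZ+MENS livers were compared with STZ livers next. Of the 78 genes, 7 were higher (8.97%) and 19 lower (24.4%) at an unadjusted limma p under 0.05, against 12.6% and 12.8% of all genes. Both STZ+MENS samples lay above both STZ samples for 21 genes and below them for 33 (26.9% and 42.3%), against 34% and 23.9% of all genes. The median difference was -0.19, beside 0.06 over all genes.

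Against control, the STZ+MENS livers had 10 genes higher and 13 lower (12.8% and 16.7%) at an unadjusted limma p under 0.05, against 8.82% and 9.18% of all genes. Samples did not overlap for 19 genes that were higher and 32 that were lower, against 25.6% and 23% of all genes, and the median difference was -0.06 beside 0.02. The comparisons share samples, so their values are set side by side here and none is taken as support for another.

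**Figure D1:**
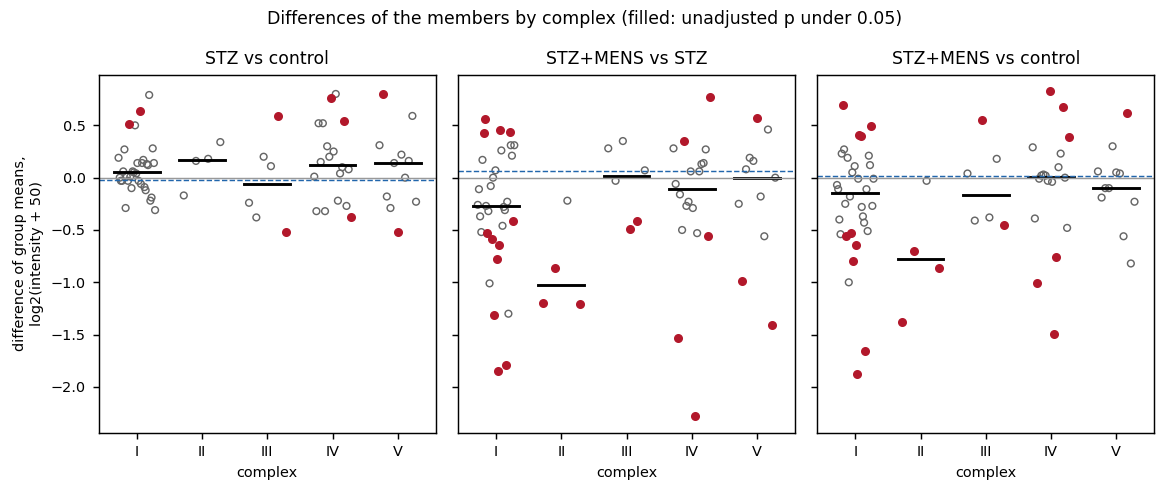
Difference of group means in log2(intensity + 50) for each subunit gene of complexes I to V, in the 3 comparisons. Circles are genes, filled where the unadjusted limma p was under 0.05, black bars are the medians of a complex and the dashed line is the median of all genes. Complex II has its median at -1.03 for STZ+MENS against STZ, while complexes III and V have theirs at 0.02 and 0.

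Taken complex by complex, the medians for STZ against control ran from -0.06 in complex III to 0.17 in complex II. For STZ+MENS against STZ they were -0.27 in complex I, -1.03 in complex II, 0.02 in complex III, -0.11 in complex IV and 0 in complex V. For STZ+MENS against control they were -0.15, -0.78, -0.17, 0.01 and -0.1. Complex II has only 4 genes, so its median rests on few probes.

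The liver samples of the STZ+MENS group also differed between themselves. Relative to the control mean, the median over the 78 genes was -0.19 in STZ+MENS sample 1 and 0.05 in sample 2, and 0.15 and -0.01 in the STZ samples. In the STZ+MENS group 23 of the 78 genes (29.5%) were more than 0.5 apart between the samples, and all 23 were higher in sample 2, whereas 19.2% of all genes were that far apart. Over all genes, 3402 were that far apart in the STZ+MENS group, and 1861 of them were higher in sample 2. Of the 78 genes, 4 (5.13%) were that far apart in control and 11 (14.1%) in STZ, against 9.44% and 11.7% of all genes. Without STZ+MENS sample 1, the median for STZ+MENS against STZ was -0.01. Without STZ+MENS sample 2, 17 of the 78 genes passed an adjusted limma p of 0.05 for STZ+MENS against STZ (16 lower and 1 higher), as did 9.91% of all genes. That fit has 1 STZ+MENS liver sample, which is assumed to vary like the control and STZ samples, so the count carries no spread of its own group.

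**Figure D2:**
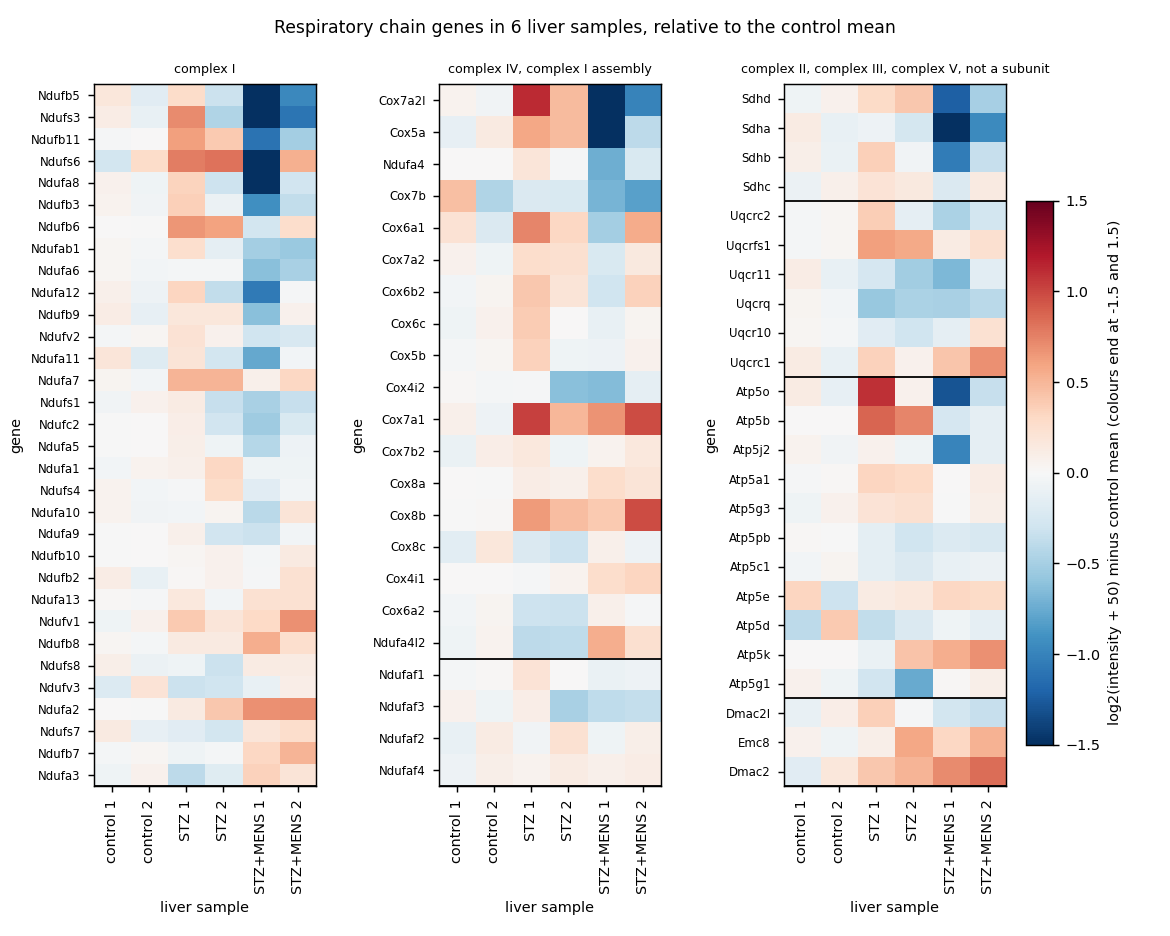
Each of the 78 genes (lines) in each of the 6 liver samples (columns), as log2(intensity + 50) minus the control mean, with genes grouped by complex and ordered by their difference between STZ+MENS and STZ. Blue is lower and red higher than control, and colours end at -1.5 and 1.5. STZ+MENS sample 1 holds the darkest blue, with a lowest value of -2.79, and complex I contains blue and red genes side by side.

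Promoter sequence from RefSeq (mouse build GRCm38.p6, running from 250 bases before to 50 after the annotated start) was listed for 64 of the 78 genes. The 120 bases just before the start are shown for 8 genes described below. Of these, Ndufs3, Sdha, Sdhb, Sdhd, Cox5a and Atp5b were lower and Ndufa3 and Ndufs7 higher in STZ+MENS than in STZ at an unadjusted limma p under 0.05. They lie at chr2:90904722-90904841 on the minus strand (Ndufs3), chr13:74350241-74350360 on the minus strand (Sdha), chr4:140961151-140961270 on the plus strand (Sdhb), chr9:50603850-50603969 on the minus strand (Sdhd), chr9:57521112-57521231 on the plus strand (Cox5a), chr10:128083187-128083306 on the plus strand (Atp5b), chr7:3617253-3617372 on the plus strand (Ndufa3) and chr10:80249329-80249448 on the plus strand (Ndufs7). Each is written 5′ to 3′ on the strand of its gene, and capitals mark matches to the motifs searched.
Ndufs3: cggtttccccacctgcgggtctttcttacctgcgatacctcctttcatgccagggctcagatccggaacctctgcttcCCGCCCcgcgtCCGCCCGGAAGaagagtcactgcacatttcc
Sdha: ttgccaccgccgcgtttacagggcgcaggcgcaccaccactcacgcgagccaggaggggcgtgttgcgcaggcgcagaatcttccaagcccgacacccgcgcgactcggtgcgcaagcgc
Sdhb: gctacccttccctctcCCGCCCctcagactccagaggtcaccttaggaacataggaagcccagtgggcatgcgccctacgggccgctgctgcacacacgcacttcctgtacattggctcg
Sdhd: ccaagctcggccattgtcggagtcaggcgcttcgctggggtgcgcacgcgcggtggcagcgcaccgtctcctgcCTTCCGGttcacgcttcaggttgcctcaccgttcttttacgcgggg
Cox5a: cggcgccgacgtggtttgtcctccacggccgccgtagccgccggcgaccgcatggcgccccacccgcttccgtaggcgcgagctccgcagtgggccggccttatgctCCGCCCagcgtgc
Atp5b: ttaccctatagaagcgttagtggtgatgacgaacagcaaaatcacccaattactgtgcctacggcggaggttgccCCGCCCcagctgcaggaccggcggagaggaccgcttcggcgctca
Ndufa3: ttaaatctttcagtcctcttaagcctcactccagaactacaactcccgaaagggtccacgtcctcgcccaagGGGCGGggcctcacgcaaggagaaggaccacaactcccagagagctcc
Ndufs7: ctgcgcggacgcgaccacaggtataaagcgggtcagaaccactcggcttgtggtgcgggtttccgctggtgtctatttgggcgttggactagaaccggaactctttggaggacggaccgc

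The motifs were searched on either strand of the whole windows of the 64 genes and of all 27025 windows. The NRF1 core GCGCATGCG was found in 7 windows of respiratory chain genes (10.9%) and in 1.81% of all windows. The ETS core CCGGAAG, which the factor GABPA can bind, was in 12 (18.8%) against 9.12%, and the YY1 core AAGATGGC in 9 (14.1%) against 2.88%. The ERR site TCAAGGTCA was in 2 (3.1%) against 0.407%, namely Atp5g3 and Sdhd. The GC box GGGCGG was in 30 (46.9%) against 35.9%, and the cAMP response element TGACGTCA in 4 (6.2%) against 1.88%. Windows of these genes were also richer in G and C, with a median of 57.3% against 52.7%. The GC boxes and the ETS core may share bases, as the adjoining capitals of Ndufs3 show. NRF1 matches were in Atp5k, Cox6a1, Ndufa8, Ndufa11, Ndufaf4, Uqcr11 and Uqcrc1, a set that holds genes with higher and with lower values in STZ+MENS. A match is a description of letters in the window and no measure of binding.

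Complex I held lower and higher subunits side by side. Its core, which carries electrons from NADH to ubiquinone, was measured through 6 genes. Against STZ, Ndufs3 and Ndufv2 were lower in STZ+MENS and Ndufs7 higher at an unadjusted limma p under 0.05, and the differences of Ndufs1, Ndufs8 and Ndufv1 did not reach it. Of all 32 complex I genes, 8 were lower and 4 higher by that measure, against 12.8% and 12.6% of all genes.

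Ndufs3, a core subunit of the module that reduces ubiquinone, read 11.37 and 11.15 in control, 11.97 and 10.81 in STZ, and 9.03 and 10.16 in STZ+MENS. Both STZ+MENS samples lay below the other 4. The difference from STZ was -1.79 (SE 0.48, 3.46-fold lower, adjusted p = 0.0976 by limma) and from control -1.66 (SE 0.48, adjusted p = 0.168). The STZ samples were 10.81 and 11.97, so STZ and control overlapped.

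Ndufs7 carries an iron-sulfur cluster next to the ubiquinone site. Its values were 15.75 and 15.50 in control, 15.45 and 15.35 in STZ, and 15.80 and 15.88 in STZ+MENS, so the STZ+MENS samples stood highest and the STZ samples lowest. The difference from STZ was 0.44 (SE 0.15, adjusted p = 0.146 by limma). Its neighbour Ndufs8 read 14.37 and 14.19, then 14.22 and 13.96, then 14.40 and 14.40, in the same order of groups, a difference of 0.31 (SE 0.16, adjusted p = 0.272).

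The NADH-oxidising module gave mixed values. Ndufv1, which binds NADH and FMN, read 15.92 and 16.04 in control, 16.37 and 16.16 in STZ, and 16.28 and 16.67 in STZ+MENS. STZ and STZ+MENS overlapped for this gene, and STZ+MENS lay 0.49 above control (SE 0.18, adjusted p = 0.241 by limma). Its partner Ndufv2, a dim probe, read 8.64 and 8.70 in control, 8.89 and 8.73 in STZ, and 8.37 and 8.43 in STZ+MENS, a difference of -0.41 from STZ (SE 0.14, adjusted p = 0.142). Ndufs1, the large iron-sulfur subunit, read 14.67 and 14.78, then 14.84 and 14.37, then 14.23 and 14.37. The lower STZ sample and the higher STZ+MENS sample of Ndufs1 were alike at 14.37.

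Among the 26 accessory subunits of complex I, which surround the core and stabilise it, Ndufb11 had the smallest p for STZ+MENS against STZ. This membrane-arm subunit read 11.95 and 11.98 in control, 12.58 and 12.36 in STZ, and 10.86 and 11.46 in STZ+MENS, so the groups did not overlap. The difference from STZ was -1.31 (SE 0.22, 2.48-fold lower, adjusted p = 0.0595 by limma), while STZ exceeded control by 0.5 (SE 0.22, adjusted p = 0.317). The arrays of STZ+MENS sample 2 disagreed for it, at 11.84 and 11.07.

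Ndufa6, a peripheral-arm subunit that binds the acyl carrier protein, read 17.51 and 17.44 in control, 17.45 and 17.45 in STZ, and 16.85 and 16.99 in STZ+MENS. Control and STZ nearly coincided, and both STZ+MENS samples were lower (log2 difference from STZ -0.53, SE 0.14, adjusted p = 0.0911 by limma). The acyl carrier protein itself, Ndufab1, read 11.17 and 11.11, then 11.39 and 11.01, then 10.63 and 10.58 in the same order of groups. It differed from STZ by -0.59 (SE 0.17, adjusted p = 0.107).

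Other complex I genes were higher in STZ+MENS. Ndufa3, a small subunit of the membrane arm, read 16.35 and 16.47 in control, 16.02 and 16.23 in STZ, and 16.76 and 16.60 in STZ+MENS, which is 0.56 above STZ (SE 0.15, adjusted p = 0.0997 by limma). Ndufa2, a subunit of the NADH-oxidising module, read 14.81 and 14.79, then 14.94 and 15.20, then 15.49 and 15.50. It lay 0.43 above STZ (SE 0.15, adjusted p = 0.148) and 0.69 above control (SE 0.15, adjusted p = 0.127).

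Ndufb6 and Ndufa7 had the smallest p of complex I for STZ against control. Ndufb6, a membrane-arm subunit, read 14.63 and 14.61 in control, 15.28 and 15.22 in STZ, and 14.34 and 14.88 in STZ+MENS, so STZ stood above control by 0.64 (SE 0.2, adjusted p = 0.209 by limma). Ndufa7 read 14.14 and 14.06, then 14.61 and 14.61, then 14.18 and 14.41, a difference of 0.51 between STZ and control (SE 0.15, adjusted p = 0.184). For both genes the STZ+MENS samples were below the STZ samples.

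The largest difference in complex I was that of Ndufb5, named after its values were seen. It read 13.24 and 12.90 in control, 13.34 and 12.75 in STZ, and 10.28 and 12.10 in STZ+MENS. The STZ+MENS samples were far apart (SD 1.29, n = 2), and the difference of -1.85 from STZ had an SE of 0.57 (adjusted p = 0.121 by limma). Ndufa11 was read by more than 1 probe, and these disagreed: the brightest gave -0.37 and the dimmer 0.29 for STZ+MENS against STZ.

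The 4 complex I assembly factors with Ndufaf symbols, which help to build it and leave the finished enzyme, showed smaller differences. Factors outside these symbols, such as Dmac2 and Timmdc1, are described below and differed more. Ndufaf1, Ndufaf2, Ndufaf3 and Ndufaf4 differed between STZ+MENS and STZ by -0.19, -0.08, -0.18 and 0.02, and none had an unadjusted limma p under 0.05 in any comparison. Between STZ and control they differed by 0.11, 0.09, -0.19 and 0.08.

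Complex II, succinate dehydrogenase, oxidises succinate in the citric acid cycle and passes the electrons to ubiquinone. All 4 of its genes had both STZ+MENS samples below both STZ samples, and 3 of the 4 had an unadjusted limma p under 0.05 against STZ and against control. Over all genes, 23.9% lay without overlap on the lower side against STZ, and 12.8% and 9.18% were lower by that p against STZ and against control. None of the 4 reached that level between STZ and control.

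Sdha, the flavoprotein that holds the succinate site, read 16.41 and 16.18 in control, 16.21 and 16.03 in STZ, and 14.50 and 15.33 in STZ+MENS. Control and STZ overlapped, and STZ+MENS lay below both. The difference was -1.2 from STZ (SE 0.28, 2.3-fold lower, adjusted p = 0.0781 by limma) and -1.38 from control (SE 0.28, 2.6-fold lower, adjusted p = 0.125).

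Sdhd, a membrane anchor of the complex, read 16.45 and 16.58 in control, 16.80 and 16.91 in STZ, and 15.29 and 16.01 in STZ+MENS. Here the STZ samples stood highest and the STZ+MENS samples lowest, with a difference of -1.21 between them (SE 0.24, 2.31-fold lower, adjusted p = 0.068 by limma). Its difference from control was -0.86 (SE 0.24, adjusted p = 0.165).

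Sdhb, the iron-sulfur subunit, read 16.75 and 16.56 in control, 17.02 and 16.61 in STZ, and 15.61 and 16.31 in STZ+MENS. STZ+MENS differed from STZ by -0.86 (SE 0.27, 1.81-fold lower, adjusted p = 0.123 by limma) and from control by -0.7 (SE 0.27, adjusted p = 0.253). Its partner in the membrane, Sdhc, read 15.62 and 15.79, then 15.91 and 15.86, then 15.49 and 15.85, with a difference of -0.22 from STZ (SE 0.17, adjusted p = 0.47). The higher STZ+MENS sample of Sdhc was level with STZ.

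Sample 1 lay furthest from control in this complex too. The medians of the 4 genes relative to the control mean were -1.13 in STZ+MENS sample 1 and -0.43 in sample 2. Without STZ+MENS sample 1 the differences from STZ were -0.79 for Sdha, -0.51 for Sdhb and -0.85 for Sdhd, and without sample 2 they were -1.61, -1.21 and -1.56.

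**Figure D3:**
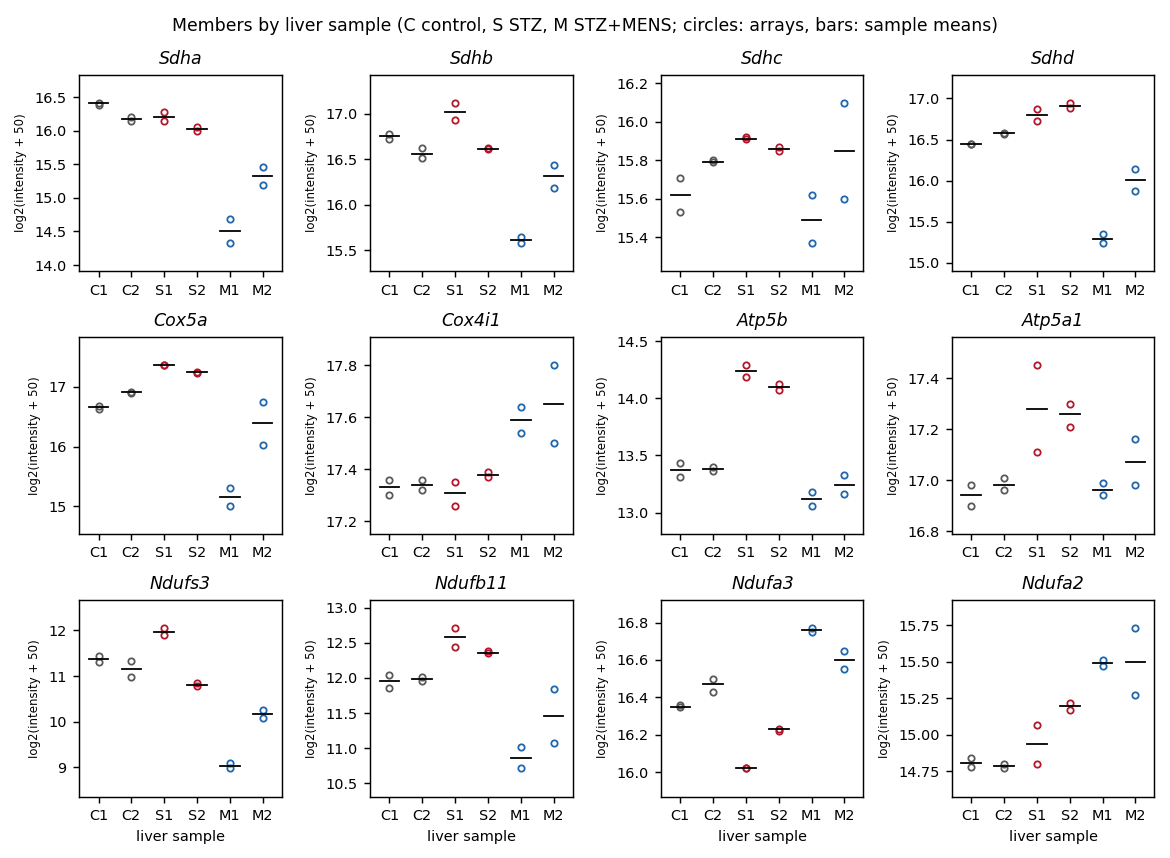
Intensity of 12 genes on the log2(intensity + 50) scale in the control (C), STZ (S) and STZ+MENS (M) liver samples, with circles for arrays and bars for sample means. Each panel has its own scale, so heights are compared within a gene only. Sdha, Sdhb and Sdhd have both STZ+MENS samples lowest, with sample 1 below sample 2, while Cox4i1, Ndufa3 and Ndufa2 have both highest.

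Complex III, the cytochrome bc1 complex, showed differences in STZ livers in opposite directions. Uqcrfs1, the Rieske iron-sulfur protein, read 16.11 and 16.17 in control, 16.75 and 16.71 in STZ, and 16.26 and 16.38 in STZ+MENS. STZ lay 0.59 above control (SE 0.13, 1.5-fold, adjusted p = 0.144 by limma), and STZ+MENS lay between them, at -0.41 from STZ (SE 0.13, adjusted p = 0.134). The arrays of STZ+MENS sample 2 gave 15.99 and 16.77 for it, a wider gap than that between its group and STZ.

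Uqcrq, which binds ubiquinone and helps to anchor cytochrome b, read 16.96 and 16.88 in control, 16.35 and 16.44 in STZ, and 16.43 and 16.51 in STZ+MENS. Both diabetic groups lay below control, STZ by a log2 difference of -0.52 (SE 0.13, adjusted p = 0.161 by limma) and STZ+MENS by -0.45 (SE 0.13, adjusted p = 0.173). Uqcr11 and Uqcr10, small subunits of the complex, also had STZ below control, with differences of -0.38 (SE 0.22) and -0.24 (SE 0.17), and neither had an unadjusted limma p under 0.05.

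The core proteins of complex III, which face the matrix, went apart. Uqcrc1 read 15.48 and 15.25 in control, 15.71 and 15.42 in STZ, and 15.78 and 16.04 in STZ+MENS, which is 0.55 above control (SE 0.18, adjusted p = 0.207 by limma). Uqcrc2 read 16.97 and 17.03, then 17.37 and 16.86, then 16.52 and 16.72. Its STZ+MENS samples were lowest, with a difference of -0.49 from STZ (SE 0.2, adjusted p = 0.195).

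Complex IV, cytochrome c oxidase, has nuclear subunits that surround its mitochondrially encoded core, and several exist as isoforms for different tissues. Of its 18 genes, 3 were lower and 2 higher in STZ+MENS than in STZ at an unadjusted limma p under 0.05 (16.7% and 11.1%), near the 12.8% and 12.6% of all genes. Among the 9 subunits of the liver form the median difference was -0.29, and among the 8 isoforms of other tissues it was 0.1.

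Cox5a, which contacts the core on the matrix side and is built in early together with Cox4, read 16.66 and 16.91 in control, 17.36 and 17.25 in STZ, and 15.15 and 16.39 in STZ+MENS. The groups did not overlap in any comparison. STZ+MENS differed from STZ by -1.53 (SE 0.38, 2.89-fold lower, adjusted p = 0.0874 by limma) and from control by -1.01 (SE 0.38, adjusted p = 0.248). Without STZ+MENS sample 1 the difference from STZ was -0.91, and without sample 2 it was -2.15.

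Cox4i1, the main isoform of the largest nuclear subunit, went the other way by a smaller amount. It read 17.33 and 17.34 in control, 17.31 and 17.38 in STZ, and 17.59 and 17.65 in STZ+MENS, a difference of 0.28 from STZ (SE 0.13, adjusted p = 0.248 by limma). Cox8a, another liver-form subunit, also had STZ+MENS highest, at 17.47 and 17.40 against 17.32 and 17.29 in STZ and 17.22 and 17.20 in control. Ndufa4, first described in complex I and now placed in complex IV, read 16.97 and 16.98 in control, 17.15 and 16.95 in STZ, and 16.24 and 16.74 in STZ+MENS (log2 difference from STZ -0.56, SE 0.2, adjusted p = 0.157).

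Cox7a2l is a relative of Cox7a that joins complexes III and IV into supercomplexes, and it had the widest difference of the 78 genes between STZ+MENS and STZ. Its probe is dim, with intensities of 426 and 395 in control, 950 and 591 in STZ, and 69.2 and 180 in STZ+MENS. On the log2 scale these are 8.89 and 8.79, then 9.96 and 9.32, then 6.88 and 7.84, and no groups overlap. STZ+MENS differed from STZ by -2.28 (SE 0.35, 4.87-fold lower, adjusted p = 0.0595 by limma) and from control by -1.49 (SE 0.35, adjusted p = 0.133), and STZ from control by 0.8 (SE 0.35, adjusted p = 0.32). Under other settings the difference from STZ ranged from -2.76 to -1.58.

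The isoforms typical of other tissues had mean intensities from 205 (Cox8b) to 912 (Cox6a2), and all but Cox6a2 lay below the median probe (803.2). The liver-form genes Cox6c (574) and Cox7b (634) lay below it too. Cox7a1 and Cox8b, the forms of heart and skeletal muscle, were higher in both diabetic groups than in control. Cox7a1 read 8.03 and 7.87 in control, 8.97 and 8.45 in STZ, and 8.62 and 8.93 in STZ+MENS, so STZ lay 0.76 (SE 0.22, adjusted p = 0.184 by limma) and STZ+MENS 0.83 (SE 0.22, adjusted p = 0.152) above control. Cox8b read 7.53 and 7.56, then 8.18 and 8.00, then 7.93 and 8.52, with differences of 0.54 and 0.68 from control (SE 0.22 each).

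Markers of tissues that use these isoforms were measured alongside. Summed over the 4 of 6 skeletal muscle markers on the array, intensity was 1430 to 1670 in control, 1490 to 1720 in STZ and 1660 to 1710 in STZ+MENS. Over the 6 adipocyte markers it was 3430 to 3820, 4670 to 5260 and 4170 to 4340, with Ucp1, the brown fat uncoupler, between 7.28 and 7.60 in every sample. Between STZ and control, Cidec and Adipoq differed by 1.38 and 0.38. Lep, Plin1, Retn and Ucp1 differed by 0.02, -0.1, 0.17 and 0.11. The part of such cells in the Cox7a1 and Cox8b values was not tested.

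The remaining isoform pairs were compared gene by gene. Cox6a1, the liver form, read 17.01 and 16.57 in control, 17.52 and 17.10 in STZ, and 16.28 and 17.35 in STZ+MENS, with STZ+MENS sample 1 the lowest of the 6 and sample 2 between the STZ samples. Cox6a2, the muscle form, read 9.95 and 10.03, then 9.68 and 9.67, then 10.07 and 9.97, with STZ lowest and a difference of 0.35 between STZ+MENS and STZ (SE 0.13, adjusted p = 0.176 by limma). Cox4i2, an isoform of lung, and Cox7a2, the form of liver, differed between STZ+MENS and STZ by -0.06 (SE 0.26) and -0.29 (SE 0.17).

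Ndufa4l2 is a relative of Ndufa4 known to be induced by low oxygen. It read 8.60 and 8.71 in control, 8.27 and 8.28 in STZ, and 9.20 and 8.90 in STZ+MENS. STZ stood lowest and STZ+MENS highest, with differences of -0.38 for STZ against control (SE 0.16, adjusted p = 0.292 by limma) and 0.77 for STZ+MENS against STZ (SE 0.16, adjusted p = 0.0679). Its direction between STZ+MENS and STZ was opposite to that of Ndufa4. Cox6b2, an isoform of testis, was read by more than 1 probe, and these gave 0.3 and 1.07 for STZ against control.

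Complex V, the ATP synthase, showed its clearest values in a catalytic subunit. Atp5b, the F1 beta subunit that holds the catalytic sites, read 13.37 and 13.38 in control, 14.24 and 14.10 in STZ, and 13.12 and 13.24 in STZ+MENS. Both STZ samples stood above the other 4. STZ exceeded control by 0.8 (SE 0.14, 1.74-fold, adjusted p = 0.11 by limma), the lowest adjusted p of the 78 genes in that comparison, and STZ+MENS differed from STZ by -0.99 (SE 0.14, 1.98-fold lower, adjusted p = 0.0595).

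Atp5a1, the F1 alpha subunit that alternates with beta in the same ring, also had STZ highest, with smaller steps. Its STZ+MENS samples overlapped control, unlike those of Atp5b. Atp5a1 read 16.94 and 16.98 in control, 17.28 and 17.26 in STZ, and 16.96 and 17.07 in STZ+MENS. The differences were 0.31 for STZ against control (SE 0.13, adjusted p = 0.314 by limma) and -0.25 for STZ+MENS against STZ (SE 0.13, adjusted p = 0.293). The other F1 genes, Atp5c1, Atp5d and Atp5e, differed between STZ+MENS and STZ by 0.08, 0.19 and 0.16, none with an unadjusted p under 0.05.

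The membrane part of the synthase was uneven as well. Atp5g1, which encodes the c subunit of the rotor, read 16.21 and 16.07 in control, 15.85 and 15.38 in STZ, and 16.16 and 16.23 in STZ+MENS, so STZ stood lowest. STZ differed from control by -0.52 (SE 0.19, adjusted p = 0.25 by limma) and STZ+MENS from STZ by 0.57 (SE 0.19, adjusted p = 0.137), but a dimmer probe of the gene gave -0.16 and -0.08. Atp5g3, which encodes the same mature c subunit, went the other way, with 17.90 and 18.02 in control, 18.16 and 18.20 in STZ, and 17.95 and 18.05 in STZ+MENS.

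The stalk and the supernumerary subunits completed complex V. Atp5o, the subunit that ties the stalk to F1, had a dim probe and read 8.98 and 8.74 in control, 9.96 and 8.93 in STZ, and 7.56 and 8.52 in STZ+MENS. Its difference from STZ was -1.41 (SE 0.43, adjusted p = 0.119 by limma). Atp5k, a subunit at the interface of synthase dimers, read 15.09 and 15.09, then 14.99 and 15.52, then 15.64 and 15.78, which puts STZ+MENS 0.62 above control (SE 0.2, adjusted p = 0.204). Atp5j2 had a difference of -0.56 in each comparison of STZ+MENS (SE 0.28), with samples at 15.07 and 15.92.

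Genes with older symbols of the same style were kept apart from the subunits. Dmac2, an assembly factor of the complex I membrane arm, read 14.50 and 14.84 in control, 15.07 and 15.18 in STZ, and 15.38 and 15.51 in STZ+MENS, which is 0.77 above control (SE 0.17, adjusted p = 0.127 by limma). Dmac2l and Emc8 differed between STZ+MENS and control by -0.3 and 0.42. A second probe of Dmac2l gave 0.33, of opposite sign.

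When the 12 arrays were kept apart with the liver sample as a random block, more genes passed in every comparison. By an adjusted limma p of 0.05, 4 of the 78 genes were then higher in STZ than in control (Atp5b, Cox7a1, Dmac2 and Ndufa7), while 6.79% of all genes passed. For STZ+MENS against STZ, 13 were lower and 4 higher, among them Sdha, Sdhb, Sdhd, Cox5a, Cox7a2l, Atp5b, Ndufs3 and Ndufb11 on the lower side, while 17.4% of all genes passed. For STZ+MENS against control, 7 were higher and 6 lower, while 7.53% passed. These counts rest on the same 6 liver samples, and 1 correlation between arrays (0.48) served all genes. Where arrays agree more closely than samples, this fit can give too small a p. Ndufs3 is such a gene, with a largest array gap of 0.36 and STZ+MENS samples at 9.03 and 10.16.

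Genes that serve the chain without belonging to it were taken from 6 lists with 84 genes measured. None passed an adjusted limma p of 0.05. For STZ+MENS against STZ, 10 were higher (11.9%) and 32 lower (38.1%) at an unadjusted p under 0.05, against 12.6% and 12.8% of all genes, with a median difference of -0.26. For STZ against control the counts were 8 and 3 (9.52% and 3.57%, against 8.48% and 8.49% of all genes) with a median of 0.14. For STZ+MENS against control they were 9 and 20 (10.7% and 23.8%, against 8.82% and 9.18%) with a median of -0.16.

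Assembly factors gave the widest values among them. Timmdc1, which helps to build the membrane arm of complex I, read 7.27 and 7.79 in control, 10.26 and 9.85 in STZ, and 7.15 and 7.74 in STZ+MENS, with STZ 2.52 above control (SE 0.28, adjusted p = 0.0659 by limma) and STZ+MENS at -2.61 from STZ (SE 0.28, adjusted p = 0.0573). Of the 6 complex I factors in this list, 4 were lower and 0 higher in STZ+MENS than in STZ at an unadjusted p under 0.05. Of the 28 factors for complexes II to V, 12 were lower and 4 higher, against 12.8% and 12.6% of all genes. They include Coa6, a copper-handling factor for complex IV, with a difference of -1.42 (SE 0.17, adjusted p = 0.0573), and Tmem70, a factor for complex V, with -1.35 (SE 0.2, adjusted p = 0.0595).

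Among the 14 electron carriers and ubiquinone genes, 5 were lower and 0 higher in STZ+MENS than in STZ at an unadjusted limma p under 0.05. Over all genes 12.8% were lower and 12.6% higher. Etfdh, which delivers electrons from fatty acid oxidation to ubiquinone, read 14.13 and 13.86 in control, 15.04 and 14.05 in STZ, and 11.24 and 12.84 in STZ+MENS (log2 difference from STZ -2.51, SE 0.55, adjusted p = 0.0729). Of the 12 citric acid cycle genes, 4 were lower and 1 higher. Dld, the shared dehydrogenase of the pyruvate and oxoglutarate complexes, differed from STZ by -1.39 (SE 0.25, adjusted p = 0.0595).

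The 17 regulators of mitochondrial biogenesis were split, with 5 higher and 4 lower in STZ+MENS than in STZ at an unadjusted limma p under 0.05, against 12.6% and 12.8% of all genes. Tfam, which packages and transcribes mitochondrial DNA, read 10.30 and 10.19 in control, 10.63 and 10.12 in STZ, and 8.96 and 9.47 in STZ+MENS (log2 difference from STZ -1.16, SE 0.24, adjusted p = 0.07). Gabpa, an ETS factor, differed by -1.12 (SE 0.24, adjusted p = 0.0705). The coactivator Ppargc1b stood higher, by 1.06 over control (SE 0.23, adjusted p = 0.128), and Esrra, the ERR alpha receptor, was at -0.41 for STZ against control (SE 0.14, adjusted p = 0.23). Of the 7 genes of ATP export and uncoupling, 3 were lower and 0 higher in STZ+MENS than in STZ, including Vdac1 at -0.37 and Slc25a3, the phosphate carrier, at -0.76.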

How the data were processed

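The deposited values are linear probe intensities that the authors had processed before deposit: array medians lay between 768.89 and 770.33 and the lowest value was -73.94, the form that background subtraction and quantile normalization leave. For these steps, no method is given in the sources used here. Per the submitters' processing notes limma 3.30.7 was used, with no role given. RNA was labelled with Cy5, per the labels' protocols.

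Values below 0 were set to 0, 50 was added and log2 was taken. Probes were named from the platform annotation with symbols updated through RefSeq (GRCm38.p6), and the brightest probe stood for a gene, which decided for 9 of the 78 genes. Arrays were averaged per sample. limma's linear model, with 3 group means, was fitted over 6 samples and 17742 genes (limma 3.58.1 with lmFit and eBayes, R 4.3.3, the data.table package in version 1.17.8), leaving 3 residual and 3.2 prior degrees of freedom. All tests are two-sided, with Benjamini-Hochberg adjustment over the whole table. No exact permutation test was run, because with 2 samples a group its smallest p is 0.33. The procedure was run on simulated data with independent samples, to check that planted differences came back near their size. No statement on power or false calls in these data rests on that run. The number of liver samples limits the precision.

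The genes, lists and naming rule were chosen with earlier results of these data known. The rule names, per comparison and complex, up to 4 genes with the smallest p among those whose groups do not overlap and whose mean intensity is at least 50, the brightest gene of each complex, the core of complex I, complex II, F1 alpha and beta, and isoform pairs, and up to 2 genes per pathway list. Ndufb5, Ndufa11, Ndufab1, Atp5c1, Atp5d, Atp5e, Ndufaf1 to Ndufaf4, Dmac2, Dmac2l, Emc8, Ucp1 and the other cell type markers were named after their values were seen. Emc8, whose older symbol begins with COX4, was set with the genes that are not subunits. Other offsets, filters, probe rules, normalizations, blocks and left-out samples were tried. Where leaving out a sample leaves 1 in its group, that sample is assumed to vary like the other groups. Plots were drawn with Python 3.11.15, matplotlib 3.10.9 and pandas 2.3.3.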

Additional observations from a re-analysis of the deposited data

How the results depend on the processing

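With the 12 arrays kept apart and the sample as a random block (consensus correlation 0.48), 4 genes passed an adjusted limma p of 0.05 for STZ against control, 17 for STZ+MENS against STZ and 13 for STZ+MENS against control, where 0 passed with the arrays averaged and all samples kept. Leaving out each sample in turn, the count that passed was 0 to 17 for STZ+MENS against STZ, with 17 without STZ+MENS sample 2, and 0 in the other comparisons. The number with an unadjusted p under 0.05 ranged from 5 to 14 for STZ against control (lowest without control sample 2), from 10 to 29 for STZ+MENS against STZ (lowest without STZ sample 1) and from 10 to 25 for STZ+MENS against control (lowest without control sample 2). For these fits, the share of all genes with an unadjusted p under 0.05 is not given here. The ranges therefore cannot tell a change in the 78 genes from one shared by all genes. With samples left out in the same way, the median difference over the 78 genes ranged from -0.29 to -0.01 for STZ+MENS against STZ. It ranged from -0.19 to 0.05 for STZ+MENS against control and from -0.01 to 0.15 for STZ against control.

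Sample numbers shared between groups did not pair the samples: correlations of deviations over all genes were 0, -0.03 and -0.07. With the replicate number as a block, 0 genes passed the adjusted threshold in the 3 comparisons. Other offsets, the intensity filter, the mean of all probes, equal medians and a repeated quantile normalization also left 0 genes past it. So did either array alone, a robust prior and the structural subunits alone. In all these fits the number with an unadjusted limma p under 0.05 stayed within 1.5 times that of the main fit. Fits of only the 2 groups compared gave 0 genes as well, while 1.02% of all genes passed for STZ against control. Among 2107 values of the named genes, 37 newly passed (26 with 12 arrays and 11 without STZ+MENS sample 2) and 34 changed sign, all for differences of at most 0.5 without an unadjusted p under 0.05. Dim probes, such as those of Cox7a2l, Atp5o and most isoforms of other tissues, limit what can be read from their folds.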
